A study of Mus musculus with 32 samples.

Results

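The genes of sulfation and glucuronidation are described here in 4 mouse tissues with and without a Smim30 knockout. The set was chosen by name: protein-coding genes of the GENCODE mouse M21 annotation whose symbol starts with Sult, or with Ugt followed by a number, and 6 named singly, Papss1, Papss2, Suox, Slc26a1, Tpst1 and Tpst2. That gave 49 genes of the 51510 with a value, made up of 21 Sult genes, 22 Ugt genes (9 Ugt1, 10 Ugt2, 2 Ugt3 and 1 Ugt8) and the 6 single ones. Messenger RNA was measured by RNA sequencing of bulk tissue, in TPM, a transcript abundance scaled for length and to the same total in each library, summed over each gene's transcripts.

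The libraries came from male C57BL/6J mice of a Smim30 knockout line, labelled Mut, and of wild type, labelled WT. Brown adipose tissue (BAT), heart, liver and muscle were taken, with 4 libraries for each of the 8 combinations of tissue and genotype and 32 in all. The design text speaks of 4 individual male mice for each tissue. The labels used here give no age and no treatment, and do not say how Smim30 was altered or which muscle was taken.

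Sulfation and glucuronidation attach a charged group to hormones, bile acids, bilirubin and drugs, which makes them soluble and ready for export, and liver is the organ best known for both. Sulfate is first activated to PAPS, the sulfate donor, by the PAPS synthases Papss1 and Papss2, and the cytosolic sulfotransferases (Sult) then move it to their substrates. The Ugt enzymes sit in the endoplasmic reticulum and transfer a sugar, for most of them glucuronic acid, from its UDP-bound form.

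Libraries held between 11480 and 12431 genes at 1 TPM or more. Marker genes stood with the labels: the summed level of 10 hepatocyte markers was 67700 to 92500 TPM in Mut liver and 75700 to 91100 TPM in WT liver, and that of 8 brown adipocyte markers was 8470 to 10400 TPM in Mut BAT and 8230 to 9820 TPM in WT BAT. The Smim30 transcript itself, listed as 2610001J05Rik, averaged 29.5 TPM in Mut BAT and 28.7 TPM in WT BAT, and no tissue gave a difference that passed the test. Its lowest adjusted p was 0.224, in muscle, with 25.9 TPM in Mut and 34.3 TPM in WT. RNA of the gene was therefore still counted in Mut, and every direction below is between libraries as labelled. The mitochondrial share of TPM was 54.5% in replicate 2 of Mut heart, against at most 43.7% in WT heart. Because these are bulk samples, fewer cells of a type and less RNA per cell cannot be told apart.

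Of the 49 genes, 6 were at 0 in every library, and 18 including those never reached 1 TPM. Among the 18 were Sult2a1 and Sult3a1, which in mouse liver are known as female-predominant, Sult4a1, a brain form, and Ugt8a, the enzyme of galactosylceramide synthesis. At the other end, 23 genes had a WT mean of 10 TPM or more in some tissue. For 22 of these 23 the highest WT mean was in liver, and the exception was Papss1, whose highest WT mean was in BAT. Tests used log2(TPM + 1) and left out genes averaging under 1 TPM, which admitted 27 of the 49 in at least 1 tissue. A gene was called at an adjusted p under 0.05, from limma with Benjamini-Hochberg adjustment over all genes tested. Fold changes on that scale understate the change of low genes.

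The 2 PAPS synthases had different tissue patterns in WT mice, and Papss1 was the 1 gene of the 49 called between Mut and WT in liver. Papss1 (ENSMUSG00000028032.13) lies at chr3:131564768-131643671 on the plus strand of GRCm38. It had 9.29, 7.45, 7.39 and 7.85 TPM in Mut livers, against 2.05, 3.13, 2.53 and 2.65 TPM in WT livers. The groups did not overlap, and the lowest Mut liver stood above the highest WT liver by a wide margin. The means were 8.00 ± 0.89 TPM in Mut liver and 2.59 ± 0.44 TPM in WT liver (SD, n = 4 each), a log2 difference of 1.33 (SE 0.11, adjusted p = 0.00333). It stayed between 1.25 and 1.40 when any 1 library was left out, with adjusted p of at most 0.0249. Of all genes tested in liver, 4.16% were called, 3.78% as higher in Mut.

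In the other tissues Papss1 did not pass the test. It had 3.31, 3.24, 2.94 and 3.21 TPM in Mut muscle, against 2.44, 2.66, 2.54 and 2.53 TPM in WT muscle. These groups did not overlap either, but the log2 difference was 0.24 (SE 0.07, adjusted p = 0.504). In BAT it had 13.5, 11.6, 11.3 and 13.5 TPM in Mut, against 10.1, 11.5, 12.9 and 12.8 TPM in WT. In heart it had 3.49, 2.49, 3.84 and 3.97 TPM in Mut, against 3.44, 4.06, 3.23 and 3.60 TPM in WT. The ranges overlapped in BAT and in heart, with log2 differences of 0.073 and -0.053. Both signs turn round with median-ratio scaling, to -0.045 in BAT and 0.048 in heart.

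The Mut minus WT difference in Papss1 itself differed between tissues. In a limma F test over the 32 libraries, the tissue by genotype interaction had an adjusted p of 1.19e-06. Averaged over the 4 tissues the Papss1 difference was 0.40 (adjusted p = 8.55e-05), and it was the 1 of the 17 genes tested with a called average (4.08% of all genes). The difference in BAT was below that in liver by 1.26 on the log2 scale (adjusted p = 1.64e-05), the one in heart by 1.38 (adjusted p = 9.21e-07) and the one in muscle by 1.09 (adjusted p = 0.000283). In WT mice the order of Papss1 levels ran BAT, heart, liver and muscle, and liver and muscle did not differ beyond their spread, with a log2 difference of 0.01 (adjusted p = 0.921). WT liver was below WT BAT by 1.84 on the log2 scale (SE 0.10, adjusted p = 1.58e-11). The mean in Mut liver lay above both WT heart and WT muscle and below WT BAT.

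**Figure D1:**
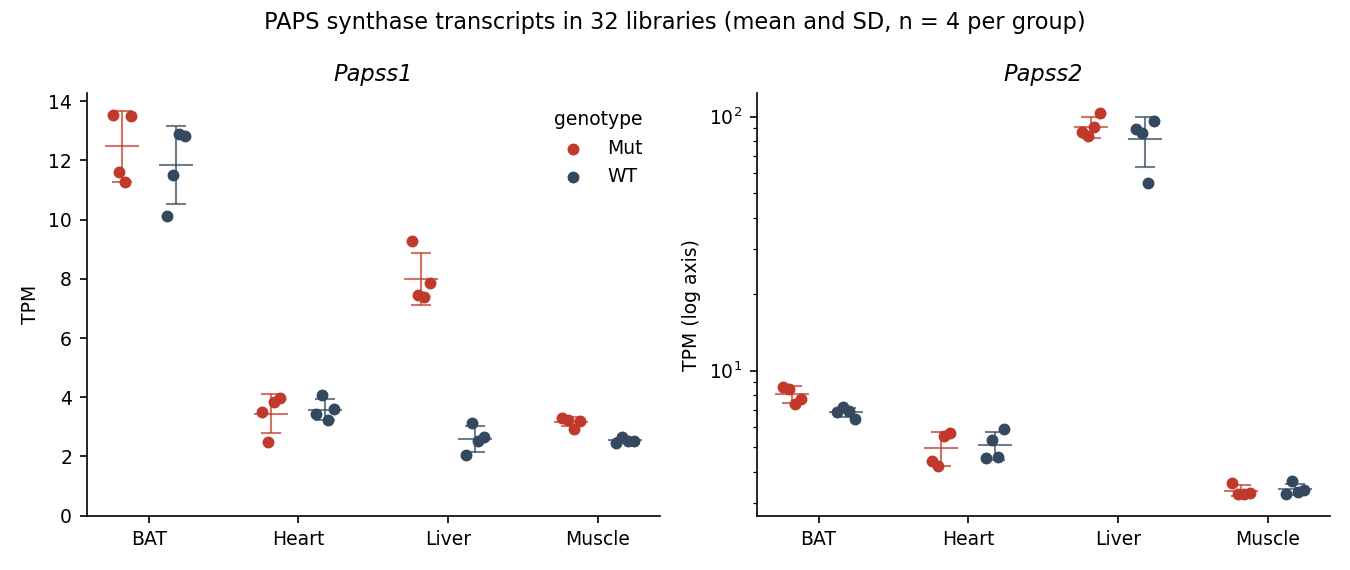
TPM of Papss1 (linear axis) and Papss2 (log axis) in each library (points) with the group mean and SD (bars, n = 4), Mut left of WT in each tissue. Papss1 in Mut liver lies between 7.39 and 9.29 TPM, above every WT liver, while Papss2 overlaps between the genotypes in liver.

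Papss2, the synthase that is the main form in liver, had 86.7, 83.9, 90.8 and 103.6 TPM in Mut livers, against 89.4, 85.8, 54.7 and 96.3 TPM in WT livers. The ranges overlapped, with replicate 3 of WT the lowest library, and the log2 difference was 0.19 (SE 0.16, adjusted p = 0.501). In BAT its levels were 8.65, 8.48, 7.36 and 7.76 TPM in Mut, against 6.88, 7.16, 6.93 and 6.44 TPM in WT. Mut was above WT in all of those libraries, but the log2 difference of 0.21 did not pass (adjusted p = 0.212). Heart and muscle overlapped, with means of 4.95 TPM in Mut heart, 5.08 TPM in WT heart, 3.37 TPM in Mut muscle and 3.42 TPM in WT muscle. In liver Papss1 made up 8.10 ± 1.15% of the summed TPM of both synthases in Mut and 3.21 ± 0.96% in WT (SD, n = 4 each), so Papss2 stayed the larger share by far. In BAT the share of Papss1 was 60.7 ± 2.34% in Mut and 63.2 ± 3.22% in WT, and Papss1 was the larger share there. The share in muscle was 48.5 ± 1.14% in Mut and 42.7 ± 0.46% in WT, without overlap. The share in heart was 40.9 ± 2.91% in Mut and 41.4 ± 2.43% in WT.

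The transcripts behind both genes were examined as well. In liver the Papss1-201 transcript held 72.1% of the gene's TPM in Mut and 71.1% in WT, and Papss1-205 held 22.2% in Mut and 26.2% in WT. Papss1-201 had between 5.16 and 7.07 TPM in Mut livers and between 1.58 and 2.06 TPM in WT livers, without overlap. For Papss2 the leading transcript differed between tissues: Papss2-201 held 82.4% in Mut liver and 81.5% in WT liver, while Papss2-203 held 70.4% in Mut BAT and 65.9% in WT BAT. Few of the subsequences of 31 bases in these genes' transcripts occur in another gene, 3.0% for Papss1 and 0.887% for Papss2, so few of their reads could be credited to another gene.

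Markers of other cell types also differed by genotype in liver, and they are given here because the Papss1 difference was measured in whole tissue. Of 9 macrophage markers tested all 9 were higher in Mut liver and 1 of them, Cd68, was called, and the summed level of the 10 in the list was 139 to 465 TPM in Mut and 53.0 to 200 TPM in WT. Of 10 fibroblast and stellate cell markers all 10 were higher and 3 were called (Col1a1, Col1a2 and Col3a1), with sums of 147 to 224 TPM in Mut and 118 to 160 TPM in WT. Of 10 hepatocyte markers 1 was higher, 9 were lower and none was called (1, Apoa1, was called as lower with median-ratio scaling). No marker of these 3 lists was at 0 in every liver library. Cholangiocyte markers summed to 31.5 to 49.6 TPM in Mut and 19.3 to 28.5 TPM in WT, with 1 of 3 tested higher and that one, Spp1, called (0.81, adjusted p = 0.0313). Red blood cell markers summed to 1070 to 4290 TPM in Mut and 1230 to 1570 TPM in WT, with 5 of 5 tested higher. No cholangiocyte or red blood cell marker was at 0 in every library of Mut or of WT liver. Without replicate 4 of Mut liver, the library with the highest macrophage and red blood cell sums, the Papss1 log2 difference was 1.34 (adjusted p = 0.00705). The remaining Mut livers still had macrophage sums of 168.6, 138.6 and 164.1 TPM, against 53.0, 73.45, 79.25 and 200.4 TPM in WT. Leaving that library out therefore does not separate the part of these cells. The part of these cells in the difference was not tested.

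The promoters of 4 genes of the set are shown, from the RefSeq promoter sequences of GRCm38.p6, 250 bases before to 50 after each annotated start, each read 5′ to 3′ on the gene's strand. They are the synthase that was called, its partner that was not, the sulfotransferase with a level in every tissue, and the bilirubin-conjugating Ugt1a1. Papss1 is at chr3:131564518-131564817 (plus strand), Papss2 at chr19:32595465-32595764 (plus), Sult1a1 at chr7:126676369-126676668 (minus) and Ugt1a1 at chr1:88211709-88212008 (plus). Capitals mark motif matches: in Papss1 the dioxin response element core GCGTG, read as CACGC because it lies on the opposite strand, and in Sult1a1 and Ugt1a1 the HNF1 core GTTAAT, which is on the opposite strand in Ugt1a1.
Papss1: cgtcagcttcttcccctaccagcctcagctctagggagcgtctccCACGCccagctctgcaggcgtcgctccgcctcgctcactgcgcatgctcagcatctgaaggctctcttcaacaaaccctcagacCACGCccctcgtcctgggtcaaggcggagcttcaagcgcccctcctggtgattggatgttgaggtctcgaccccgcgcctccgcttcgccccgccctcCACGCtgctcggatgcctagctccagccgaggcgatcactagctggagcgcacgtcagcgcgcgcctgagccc
Papss2: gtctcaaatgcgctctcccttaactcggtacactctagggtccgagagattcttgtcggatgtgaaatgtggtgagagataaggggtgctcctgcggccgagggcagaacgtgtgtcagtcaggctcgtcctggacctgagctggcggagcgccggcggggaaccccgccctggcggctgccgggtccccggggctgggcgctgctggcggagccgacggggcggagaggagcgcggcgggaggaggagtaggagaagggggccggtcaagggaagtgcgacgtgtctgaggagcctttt
Sult1a1: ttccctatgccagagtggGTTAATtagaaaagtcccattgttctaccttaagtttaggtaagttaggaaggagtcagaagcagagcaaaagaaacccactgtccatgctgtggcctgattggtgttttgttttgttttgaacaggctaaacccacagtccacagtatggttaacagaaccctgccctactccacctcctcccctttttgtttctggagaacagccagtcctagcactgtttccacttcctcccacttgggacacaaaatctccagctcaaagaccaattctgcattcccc
Ugt1a1: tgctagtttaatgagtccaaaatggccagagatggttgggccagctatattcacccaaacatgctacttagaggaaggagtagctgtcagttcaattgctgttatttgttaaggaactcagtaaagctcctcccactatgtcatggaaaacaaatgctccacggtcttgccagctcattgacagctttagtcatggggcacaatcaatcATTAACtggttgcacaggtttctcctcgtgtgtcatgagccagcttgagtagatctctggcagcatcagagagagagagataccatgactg
The 3 matches in Papss1 start 205, 121 and 23 bases before the start site, the one in Sult1a1 232 before and the one in Ugt1a1 41 before. This Papss2 window holds no match to any of the 8 motifs searched. The windows of Suox and Tpst1, which are not shown, hold none either. Each synthase has a second annotated start: the Papss1 window at chr3:131565782-131566081 holds 1 match to GCGTG, and the Papss2 window at chr19:32619755-32620054 holds 1 match to AGGTCA, 197 bases before the start.

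Promoters were found for 43 of the 49 genes, 52 promoters in all, and both strands were searched. GTTAAT was in 25.0% of the 52, against 7.1% of all 32851 promoters in the table. The promoters with it included those of the related genes Sult2a3, Sult2a4, Sult2a5 and Sult2a6, at 0 TPM in every library. Sult3a2, which reached at most 0.2526 TPM, was among them too. The FOXA core TGTTTAC was in 11.5% against 3.65%, the TATA box TATAAA in 23.1% against 13.6%, and the nuclear receptor core AGGTCA in 23.1% against 16.3%. GCGTG was in 19.2% against 32.4%, the antioxidant response element core TGACNNNGC in 5.77% against 12.4%, and the HNF4 core CAAAGTCCA in 1.92% against 0.475%. The direct repeat of the nuclear receptor core with 4 bases between was in none of the 52, and in 0.0152% of all promoters. These are matches of letters only.

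Suox, sulfite oxidase, makes the inorganic sulfate that PAPS is built from, and it differed between tissues in how it stood in Mut. In BAT it had 14.6, 15.4, 15.0 and 16.4 TPM in Mut, against 20.8, 20.2, 18.4 and 18.2 TPM in WT. All Mut BAT libraries were below all WT ones, but the log2 difference of -0.32 (SE 0.08) did not pass (adjusted p = 0.123). In liver it had 95.3, 111.8, 95.9 and 78.4 TPM in Mut, against 58.8, 75.9, 66.9 and 77.9 TPM in WT. Here all Mut libraries were above all WT ones, the closest pair by a small margin, and the log2 difference of 0.44 (SE 0.13) did not pass either (adjusted p = 0.0745). The interaction was called (adjusted p = 0.0148), and the difference in BAT was below that in liver by 0.76 on the log2 scale (adjusted p = 0.00433). Heart averaged 9.36 ± 1.23 TPM in Mut and 8.96 ± 0.94 TPM in WT, and muscle 27.6 ± 1.9 TPM in Mut and 26.0 ± 1.7 TPM in WT. Of all genes tested for the interaction 5.87% were called, and of the 17 in the set that were tested 4 were: Papss1, Suox, Tpst1 and Sult1a1.

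Tpst1, which sulfates tyrosines of secreted and membrane proteins in the Golgi, ran the other way. In BAT it had 9.66, 8.34, 10.3 and 11.4 TPM in Mut, against 7.16, 8.22, 7.31 and 5.62 TPM in WT, without overlap (log2 difference 0.44, SE 0.12, adjusted p = 0.145). In liver it had 8.96, 9.93, 9.91 and 11.2 TPM in Mut, against 11.5, 13.6, 17.1 and 14.5 TPM in WT, again without overlap but with Mut below WT (-0.45, SE 0.12, adjusted p = 0.0592). Neither passed the test as deposited, and with median-ratio scaling Tpst1 in liver did, at an adjusted p of 0.038. In muscle it had 4.25, 4.98, 4.05 and 4.50 TPM in Mut, against 3.91, 4.00, 3.36 and 3.69 TPM in WT, without overlap (0.20, adjusted p = 0.633). In heart it had 7.31, 4.68, 7.05 and 7.29 TPM in Mut, against 8.34, 7.03, 6.77 and 7.94 TPM in WT, with overlap. The interaction was called (adjusted p = 0.00999), with the difference in BAT above that in liver by 0.89 on the log2 scale (adjusted p = 0.00434) and above that in heart by 0.62 (adjusted p = 0.0329).

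Tpst2, the second tyrosine sulfotransferase, varied widely inside groups. In heart it had 6.27, 1.40, 4.61 and 5.04 TPM in Mut, against 11.9, 13.9, 4.89 and 7.38 TPM in WT. The ranges overlapped and the log2 difference of -1.0 (SE 0.35) did not pass (adjusted p = 0.397); replicate 2 of Mut, the lowest, is the library with the mitochondrial share of 54.5%. Slc26a1, a sulfate anion transporter, had 65.9, 91.6, 71.9 and 89.0 TPM in Mut livers, against 67.2, 69.2, 59.1 and 71.5 TPM in WT livers. The ranges overlapped (0.24, adjusted p = 0.232), and outside liver the gene averaged about 1 TPM.

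**Figure D2:**
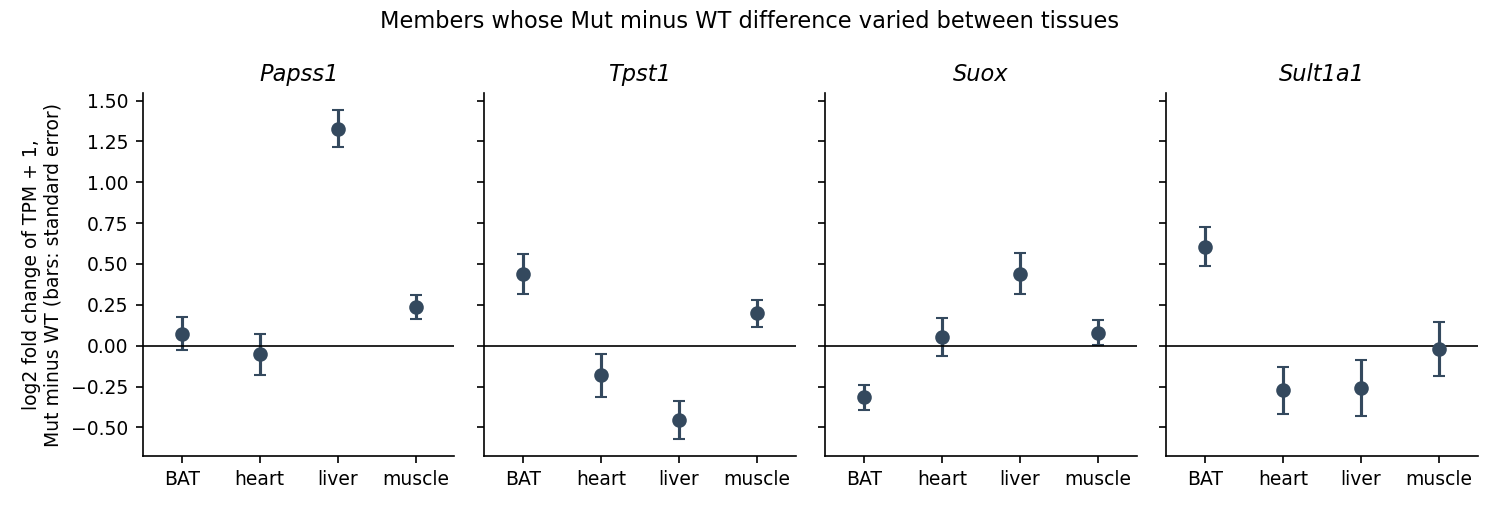
Mut minus WT difference on the log2(TPM + 1) scale with its SE, by tissue, for the 4 genes called for the tissue by genotype interaction (Papss1, Suox, Tpst1 and Sult1a1). Papss1 stands at 1.33 in liver, and Suox and Tpst1 have opposite signs in BAT and liver.

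Sult1a1, the phenol sulfotransferase, was the sulfotransferase with a clear level in every tissue, with WT means of 430 TPM in liver, 38.2 in BAT, 34.8 in heart and 27.2 in muscle. In BAT it had 50.1, 72.6, 52.2 and 61.8 TPM in Mut, against 37.5, 37.4, 42.5 and 35.5 TPM in WT. All Mut BAT libraries were above all WT ones, with a log2 difference of 0.61 (SE 0.12) that did not pass (adjusted p = 0.106). In liver it had 362, 399, 256 and 434 TPM in Mut, against 343, 447, 437 and 493 TPM in WT, with overlap (-0.26, adjusted p = 0.372). In heart it had 28.5, 25.5, 31.0 and 27.6 TPM in Mut, against 25.3, 37.2, 33.9 and 42.6 TPM in WT, also with overlap (-0.27, adjusted p = 0.466). Muscle averaged 26.5 ± 3.8 TPM in Mut and 27.2 ± 5.9 TPM in WT. The interaction was called (adjusted p = 0.0453), with the difference in BAT above that in heart by 0.88 on the log2 scale (adjusted p = 0.0281) and above that in liver by 0.86 (adjusted p = 0.0382). That call was lost in 20 of 40 alternative settings, and without replicate 2 of Mut BAT its adjusted p was 0.095.

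In BAT, 19 genes of the set were tested and 0 were called, as were 0 of all 12150 genes tested (0%); at an unadjusted p under 0.05 there were 6 of the 19 and 19.5% of all genes. The groups did not overlap for 6 of the 19, against 9.41% of all genes (7.75% with Mut above WT and 1.65% below). Those 6 were Sult1a1, Sult5a1, Suox, Tpst1, Ugt1a6b and Papss2. Sult5a1 had 1.59, 1.54, 1.71 and 1.78 TPM in Mut, against 0.982, 1.03, 0.940 and 1.08 TPM in WT (0.40, adjusted p = 0.112). Ugt1a6b, a phenol-conjugating form, had 4.85, 2.89, 2.84 and 4.55 TPM in Mut, against 2.18, 2.82, 2.37 and 2.45 TPM in WT (0.44, adjusted p = 0.178). Suox was the exception in direction, below WT, and the other 5 were above it. Without replicate 3 of WT BAT, 3 genes of the set were called, as were 819 of all 12159 genes then tested. Marker genes of other cell types had higher values in Mut BAT too, with none called: fibroblast and stellate cell markers summed to 359 to 605 TPM in Mut and 164 to 289 TPM in WT, with 8 of 8 tested higher. Macrophage markers summed to 245 to 319 TPM in Mut and 48.3 to 269 TPM in WT, with 6 of 6 higher and the WT maximum in replicate 3. Skeletal muscle fibre markers summed to 1100 to 2770 TPM in Mut and 1210 to 1320 TPM in WT, with 9 of 9 higher or 8 of 9 with median-ratio scaling, and red blood cell markers to 4080 to 6220 TPM in Mut and 2100 to 3860 TPM in WT. Endothelial cell markers summed to 138 to 173 TPM in Mut BAT and 123 to 137 TPM in WT BAT, with 5 of 6 tested higher. The part of all these cells in the values above was not tested.

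In liver the transcripts of the Ugt genes were more abundant than those of the Sult genes. The Ugt genes summed to 3104 ± 148 TPM in Mut and 2789 ± 164 TPM in WT, and the Sult genes to 1156 ± 163 TPM in Mut and 1312 ± 76 TPM in WT (SD, n = 4 each). Ugt2b36, Ugt2b5 and Ugt1a1 together held 54.4% of the Ugt sum in either genotype. Sult2a8, a bile acid sulfotransferase of mouse liver, and Sult1a1 led the Sult sum, at 52.4% and 32.1% in Mut, and at 53.4% and 32.8% in WT. Of 27 genes tested in liver, 20 were higher in Mut and 7 lower, 10 had an unadjusted p under 0.05 (25.9% of all genes did), and the groups did not overlap for 8 (16.4% of all genes). Of those 8, 7 had Mut above WT (14.3% of all genes) and 1 below (2.12%). The median log2 difference of the 27 genes was 0.10, and that of all genes tested was 0.10. The direction counts depend on the scaling: with median-ratio scaling, which moves the median of all genes by -0.118 in liver, 13 of 27 were higher and 14 lower.

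Among the Sult genes of liver none of the 7 tested was called, 3 were higher and 4 lower, or 1 and 6 with median-ratio scaling. Sult2a8 had 374, 608, 879 and 609 TPM in Mut, against 826, 655, 608 and 715 TPM in WT, a wide overlap with Mut replicates at both ends (-0.24, SE 0.23, adjusted p = 0.537). Sult1d1, which in mice sulfates catecholamines, averaged 125 ± 24 TPM in Mut and 134 ± 16 TPM in WT, and Sult1b1, a thyroid hormone sulfotransferase, 31.5 ± 1.8 TPM in Mut and 30.9 ± 4.9 TPM in WT. Sult1c2 averaged 7.05 ± 1.31 TPM in Mut and 4.94 ± 1.22 TPM in WT (0.45, adjusted p = 0.126), and Sult2a7 3.27 TPM in Mut and 4.87 TPM in WT. Sult5a1 ran from 1.92 to 14.7 TPM in Mut and from 2.92 to 7.50 TPM in WT.

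**Figure D3:**
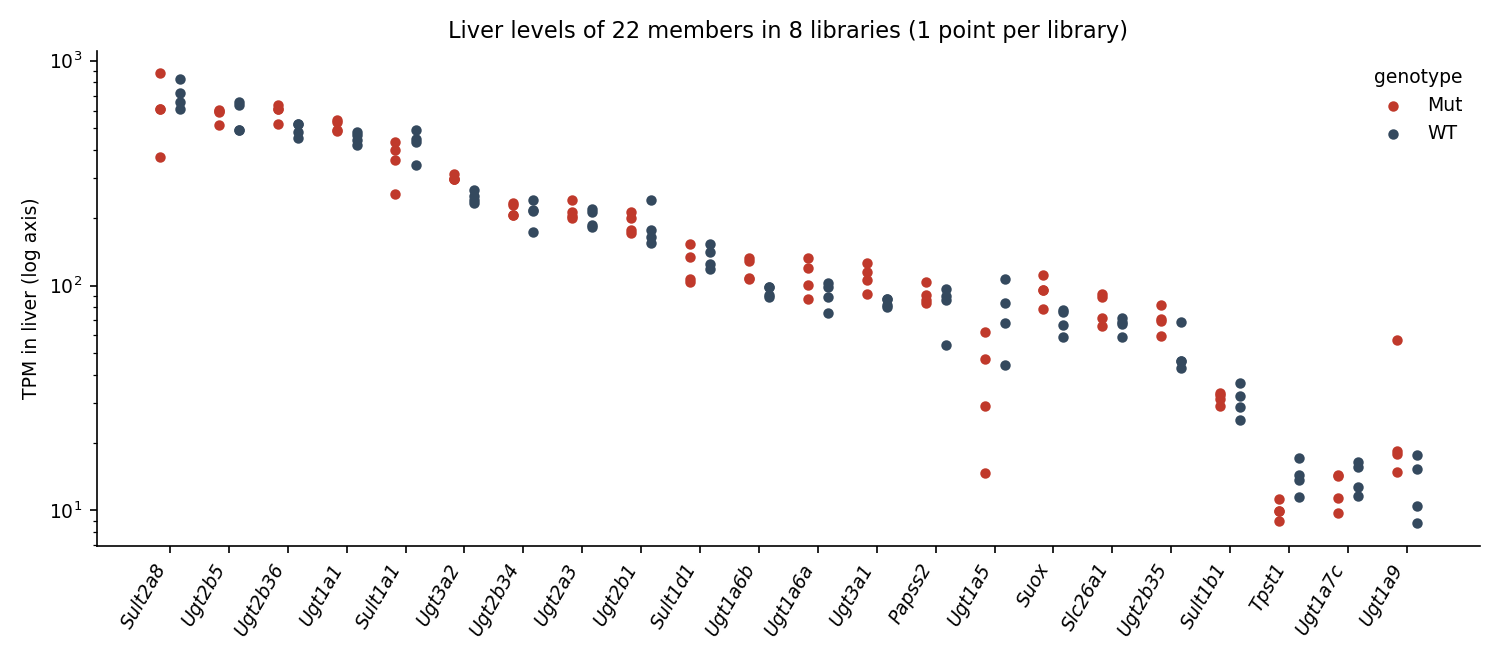
TPM on a log axis in each of the 8 liver libraries (1 point each), Mut left of WT, for the 22 genes of the set with a WT liver mean of 10 TPM or more and their highest mean in liver. Ugt3a2 and Tpst1 show genotypes apart from each other, and Ugt1a5 and Ugt1a9 the widest spread inside a genotype.

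The 2 Ugt3 genes, whose enzymes are known to use sugars other than glucuronic acid, were the Ugt genes with the smallest p in liver. Ugt3a2 had 299, 315, 298 and 299 TPM in Mut, against 267, 241, 234 and 250 TPM in WT. The groups did not overlap, with the log2 difference at 0.29 (SE 0.07, adjusted p = 0.0588). Ugt3a1 had 106, 126, 115 and 91.8 TPM in Mut, against 87.1, 80.0, 81.6 and 87.2 TPM in WT, also without overlap (0.37, SE 0.10, adjusted p = 0.0655). Both missed the threshold, and with median-ratio scaling their log2 differences were 0.15 for Ugt3a2 and 0.24 for Ugt3a1.

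Of the Ugt1 genes 6 were tested in liver, 4 were higher and 2 lower, and none was called. Ugt1a1, the bilirubin-conjugating form, had 547, 493, 535 and 489 TPM in Mut, against 483, 469, 420 and 443 TPM in WT. The groups did not overlap, with a log2 difference of 0.19 (SE 0.08, adjusted p = 0.203). Ugt1a6b had 133, 129, 108 and 107 TPM in Mut, against 88.6, 98.7, 90.9 and 98.8 TPM in WT, without overlap (0.33, adjusted p = 0.0762), and Ugt1a6a averaged 110 ± 20 TPM in Mut and 91.3 ± 12.3 TPM in WT. Ugt1a5 had 62.1, 29.1, 14.6 and 47.3 TPM in Mut, against 68.4, 83.8, 44.3 and 107 TPM in WT, with overlap (-1.08, SE 0.41, adjusted p = 0.139). Ugt1a9 had 57.5, 17.8, 14.8 and 18.4 TPM in Mut, against 17.6, 15.3, 8.79 and 10.5 TPM in WT, and replicate 1 of Mut alone stood far above the rest (0.83, adjusted p = 0.210). Ugt1a7c averaged 12.4 TPM in Mut and 14.1 TPM in WT. The Ugt1 genes differ by their first exons and share the others, and 53.0% to 84.2% of their transcripts' 31-base subsequences occur in another gene, so the split of reads among them is uncertain.

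All 6 Ugt2 genes tested in liver were higher in Mut, by 0.04 to 0.48 on the log2 scale, and none was called. With median-ratio scaling 2 were higher and 4 lower. Ugt2b36 had 611, 634, 610 and 524 TPM in Mut, against 523, 482, 524 and 455 TPM in WT, and the lowest Mut library stood just above the highest WT one (0.26, SE 0.09, adjusted p = 0.124). Ugt2b35 averaged 70.7 ± 9.0 TPM in Mut and 51.0 ± 12.0 TPM in WT (0.48, adjusted p = 0.0950). Ugt2b5 averaged 579 TPM in Mut and 569 TPM in WT, and Ugt2b34 218 TPM in Mut and 211 TPM in WT. Ugt2a3 averaged 214 TPM in Mut and 201 TPM in WT, and Ugt2b1 190 TPM in Mut and 184 TPM in WT. For Ugt2b5, 56.4% of the 31-base subsequences occur in another gene, so its values are uncertain as well. Enzymes of this family are known for conjugating steroids and bile acids.

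**Figure D4:**
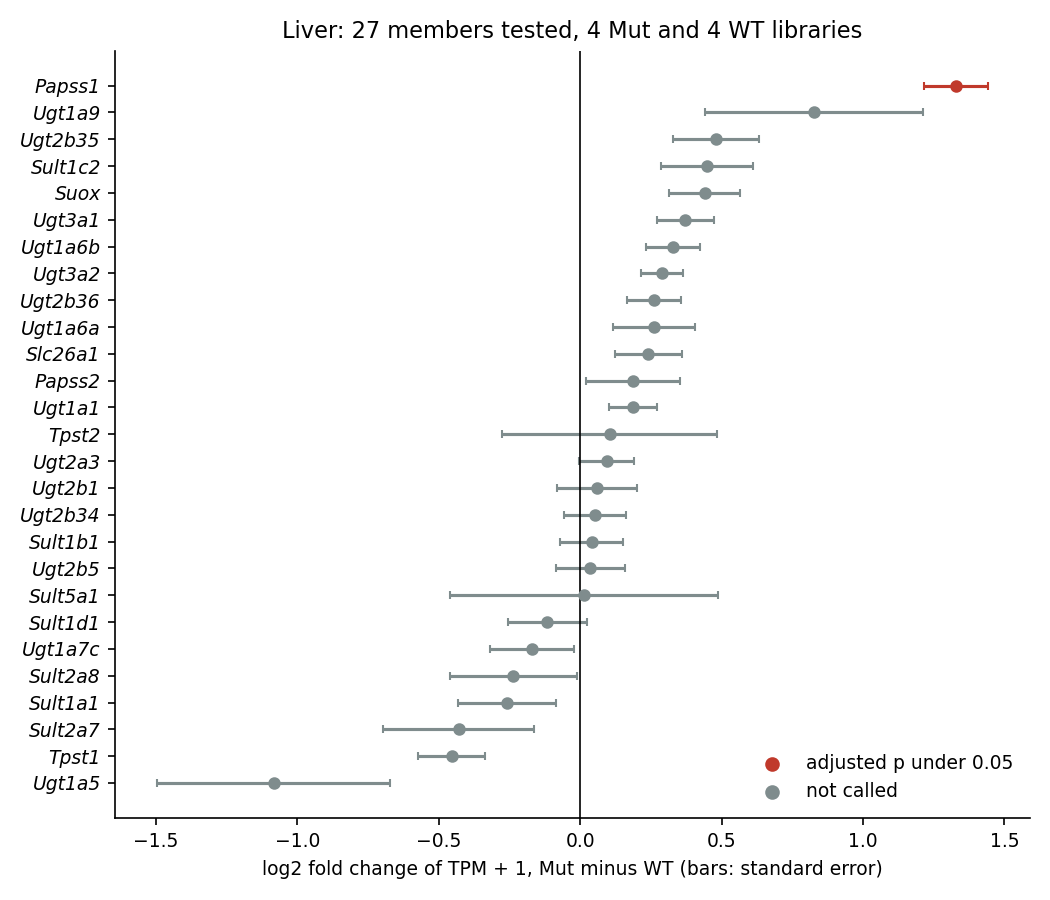
Mut minus WT difference in liver on the log2(TPM + 1) scale (points) with its SE (bars) for the 27 genes of the set that were tested, ordered by size and coloured by the call. Papss1 at 1.33 is the 1 gene called at an adjusted p under 0.05.

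In heart 17 genes of the set were tested and 0 were called, where 0.15% of all genes were, and 1 of the 17, Tpst2, had an unadjusted p under 0.05 (11.6% of all genes did). No gene of the 17 was without overlap, against 7.53% of all genes. After Tpst2 and Sult1a1 the smallest p values belonged to Ugt2b1, with 2.04 TPM in Mut and 1.73 TPM in WT, Tpst1, and Sult1d1, with 1.40 TPM in Mut and 1.13 TPM in WT. Heart markers differed by genotype too: 8 cardiomyocyte markers summed to 21100 to 30200 TPM in Mut and 31300 to 34600 TPM in WT without overlap, 7 of 8 were lower, or 5 of 8 with median-ratio scaling, and Nppa, the atrial natriuretic peptide gene, was called (-4.22, adjusted p = 0.0496). With median-ratio scaling Nppa was not called. Red blood cell markers summed to 3250 to 26200 TPM in Mut heart, highest in replicate 4, and 3090 to 6410 TPM in WT heart, with 5 of 5 tested higher. Their part in the heart values and in the differences from BAT was not tested. In muscle 20 were tested and 0 were called, where 0.0085% of all genes were, and 2 of the 20, Papss1 and Tpst1, had an unadjusted p under 0.05 and no overlap (7.76% and 4.49% of all genes did, 3.83% without overlap and above WT as these were). Next to them in muscle came Ugt1a6b, with 2.12 TPM in Mut and 1.65 TPM in WT, and Ugt2b36, with 7.42 TPM in Mut and 6.41 TPM in WT. Marker levels differed in muscle too, with none called. Macrophage markers summed to 58.5 to 76.0 TPM in Mut and 39.3 to 50.9 TPM in WT, with 5 of 5 tested higher. Fibroblast and stellate cell markers summed to 417 to 479 TPM in Mut and 334 to 397 TPM in WT, with 8 of 8 higher. Of cardiomyocyte markers 8 of 8 were lower, with overlapping sums of 577 to 1090 TPM in Mut and 897 to 1340 TPM in WT. Of all genes tested in muscle 67.03% were higher. Which cells these marker levels came from, and their part in the values above, was not tested.

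Across WT tissues most of the set was higher in liver. Of the 27 genes tested among the 16 WT libraries, 25 were higher in liver than in BAT and 1 was lower (37.4% and 35% of all genes were), with 25 and 1 for liver minus heart (46.7% and 32.5%), and 25 and 0 for liver minus muscle (42.9% and 37.2%). The gene lower in liver was Papss1. The filter used the mean of all 16 libraries, so 7 of the 27 (Sult1b1, Sult1c2, Sult2a7, Ugt1a5, Ugt1a7c, Ugt1a9 and Ugt2b35), which averaged under 1 TPM in each other tissue, entered through liver alone and had to be higher there. The counts describe the genes that entered and not the whole set. Among the other 20 genes, 18 were higher in liver in each of these comparisons. Several of them stood near the hepatocyte markers outside liver. Sult2a8 was at 0.897% of its WT liver level in BAT, 0.9% in heart and 1.17% in muscle. That was a WT mean of 6.29 TPM in BAT, 6.31 TPM in heart and 8.20 TPM in muscle. The source of such levels outside liver was not tested. Between the other tissues 5 genes were higher and 0 lower in BAT than in heart (39.9% and 23.2%), 7 higher and 11 lower in BAT than in muscle (40.9% and 32.7%), and 4 higher and 12 lower in heart than in muscle (28.9% and 35.9%). The lower counts against muscle depend on the scaling: without mitochondrial genes and the 10 most abundant others, 1 gene was lower in BAT and 2 were lower in heart. With median-ratio scaling they did not fall, with 13 lower in BAT and 12 lower in heart. Genes lower than in muscle in both included Sult1d1, Sult2a8, Ugt2a3, Ugt2b1, Ugt2b34, Ugt2b36 and Ugt2b5. As a percentage of WT liver these stood no higher than the highest hepatocyte marker in BAT, heart and muscle. Ugt1a1 and Ugt3a2 were lower in both too, and stood above that marker in each tissue. Ugt1a1 was at 1.24% in BAT, 1.15% in heart and 1.61% in muscle, and Ugt3a2 at 1.11%, 1.18% and 1.5%. Sult5a1, with a WT liver mean of 5.36 TPM, was also lower in both and was not set against the markers. The markers were highest in muscle as well, with Alb at 0.953% in BAT, 1.00% in heart and 1.34% in muscle. Suox, well above the markers, was lower too, and the part of that low level was not tested.

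The single genes had WT levels of their own. Papss2 averaged 81.6 TPM in liver, 6.85 in BAT, 5.08 in heart and 3.42 in muscle, and Suox 69.9 TPM in liver, 26.0 in muscle, 19.4 in BAT and 8.96 in heart. Every neighbouring pair in those orders differed in the limma test. Tpst1 averaged 14.2 TPM in liver, 7.52 in heart, 7.08 in BAT and 3.74 in muscle, and heart and BAT did not differ beyond their spread. Tpst2 averaged 9.52 TPM in heart and 8.99 in BAT, then 5.31 in liver and 3.64 in muscle, with an SD of 4.11 TPM in heart and 3.84 TPM in liver. For Sult1a1 neither BAT and heart nor heart and muscle differed past the threshold.

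Low levels of many of these genes outside liver were close to those of hepatocyte markers there. As a percentage of the WT liver level, the 10 hepatocyte markers stood at 0.86% to 1.09% in WT BAT, 0.835% to 1.08% in WT heart and 1.03% to 1.40% in WT muscle, with Alb at 0.953%, 1.00% and 1.34%. Of the 22 genes highest in liver, 9 were at or below the highest marker in BAT, 10 in heart and 10 in muscle. Far above it were Tpst1, at 26.4% or more in each, Suox at 27.7%, 12.8% and 37.2%, Sult1a1 at 8.89%, 8.09% and 6.33%, and Papss2 at 8.40%, 6.23% and 4.19%, in BAT, heart and muscle in turn. The source of these low levels was not tested.

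**Figure D5:**
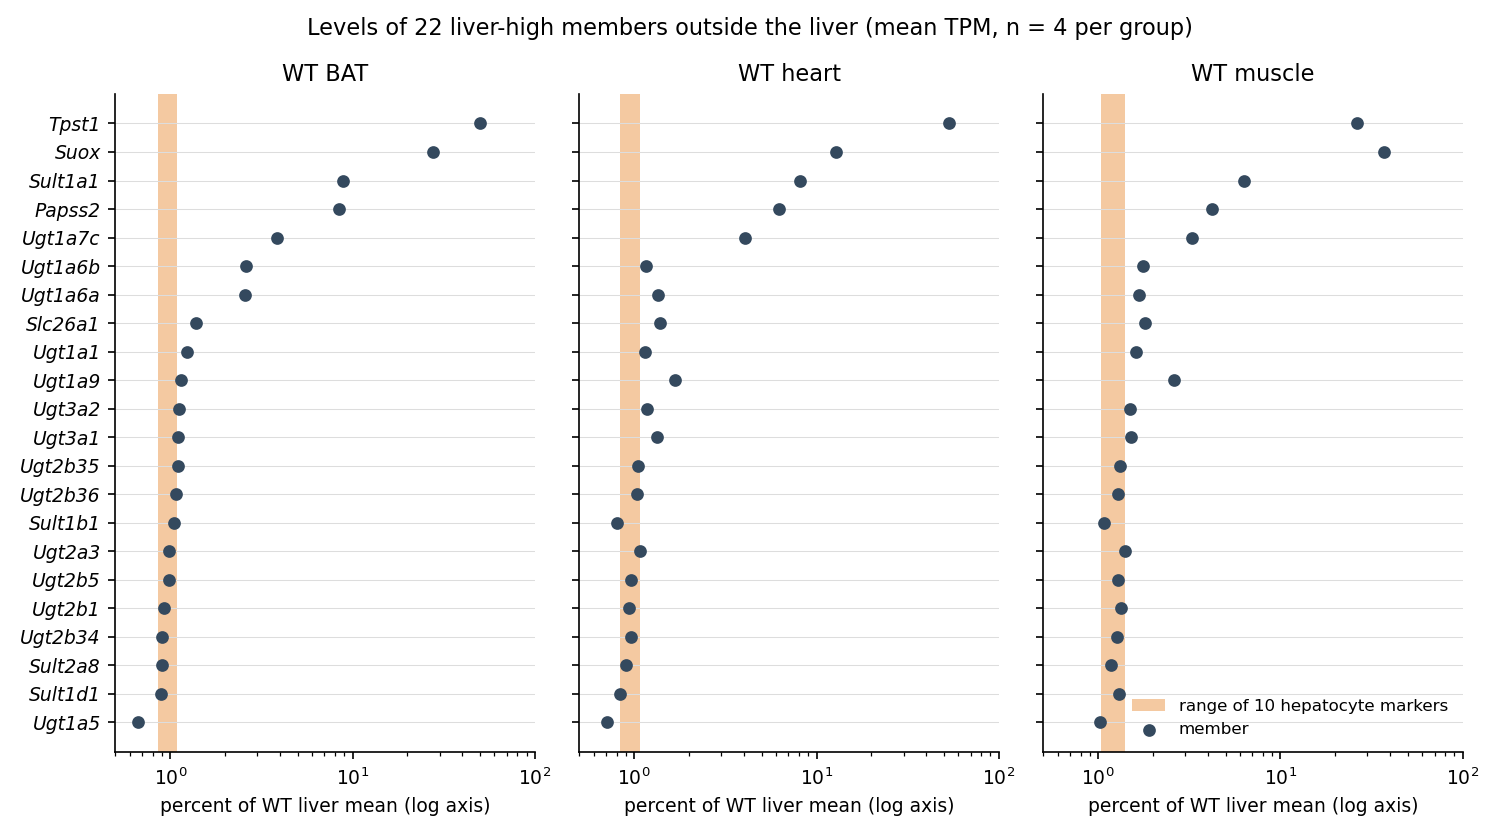
WT mean TPM in BAT, heart and muscle as a percentage of the WT liver mean (log axis) for the 22 genes highest in liver (points), with the range of 10 hepatocyte markers as a shaded band. Tpst1, Suox, Sult1a1 and Papss2 lie far to the right of the band in each tissue, while many Ugt2 and Sult genes lie in it or beside it.

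Around these enzymes, 9 lists of pathway genes were read in liver, where 69.01% of all genes tested were higher in Mut and 4.16% were called. UDP-glucuronic acid supply and glucuronide cleavage had 9 of 9 tested genes higher in Mut and 2 called: Ugdh, which makes UDP-glucuronic acid, averaged 120 ± 12 TPM in Mut and 69.3 ± 10.0 TPM in WT (0.79, SE 0.11, adjusted p = 0.0189), and Pgm2, a phosphoglucomutase, 3.33 TPM in Mut and 1.70 TPM in WT (0.68, adjusted p = 0.0375). Sulfatases had 10 of 10 higher and 3 called: Sulf2, which acts on heparan sulfate outside the cell, averaged 11.5 TPM in Mut and 4.56 TPM in WT (1.16, adjusted p = 0.0196), Arsb 15.1 TPM in Mut and 10.4 TPM in WT (0.50, adjusted p = 0.0190), and Arsa 38.2 TPM in Mut and 26.4 TPM in WT (0.52, adjusted p = 0.0233). Arsa and Arsb are lysosomal enzymes. With median-ratio scaling 8 of 9 and 9 of 10 were higher and the same genes were called. The macrophage and fibroblast marker sums of liver, given with Papss1, stood higher in Mut as well, and their part was not tested.

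Export and uptake of conjugates had 7 of 10 tested genes higher, or 5 of 10 with median-ratio scaling, and 2 called. Abcg2, an efflux pump, averaged 87.6 TPM in Mut and 51.2 TPM in WT (0.76, adjusted p = 0.0191), and Abcc3, a basolateral exporter of glucuronides, 127 TPM in Mut and 84.0 TPM in WT (0.58, adjusted p = 0.0434). With median-ratio scaling both lost the call, at adjusted p of 0.0579 and 0.106. Other conjugating enzymes had 13 of 18 higher and 1 called, the glutathione transferase Gsta1, at 15.1 ± 8.0 TPM in Mut and 1.61 ± 1.54 TPM in WT (2.67, adjusted p = 0.0191), and its close relative Gsta2 makes the split of reads uncertain. Targets that serve as readouts of the regulators had 8 of 11 higher, or 5 of 11 with median-ratio scaling, and 2 called, both known targets of Nrf2: Srxn1 at 28.6 TPM in Mut and 15.8 TPM in WT (0.81, adjusted p = 0.0222), and Nqo1 at 12.6 TPM in Mut and 7.54 TPM in WT (0.65, adjusted p = 0.0469). Nqo1 lost its call with median-ratio scaling (adjusted p = 0.0806).

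In liver limma called no gene of the other 4 lists, of which 3 of 12, 3 of 6, 2 of 9 and 2 of 16 had an unadjusted p under 0.05 in the order below (25.9% of all genes did). Of sulfur amino acid oxidation 7 of 12 tested were higher, and the smallest p belonged to Gclc, the rate-limiting enzyme of glutathione synthesis (0.57, adjusted p = 0.060), and Got2 (0.23, adjusted p = 0.160). Of sulfate and PAPS transport and PAP breakdown 5 of 6 were higher, led by Slc26a2, a sulfate transporter, at 1.76 TPM in Mut and 0.983 TPM in WT (0.47, adjusted p = 0.0548), and Impad1, a phosphatase of PAP breakdown in the Golgi, at 16.7 TPM in Mut and 12.8 TPM in WT (0.35, adjusted p = 0.0693). Of Golgi sulfotransferases 6 of 9 were higher, led by Gal3st1 (0.60, adjusted p = 0.0831) and Chst14 (0.38, adjusted p = 0.134), and of the regulators 11 of 16, led by the dioxin receptor Ahr (0.36, adjusted p = 0.0922) and Ppara (0.50, adjusted p = 0.118). With median-ratio scaling 5 of 12, 4 of 6, 4 of 9 and 7 of 16 genes of these 4 lists were higher, in the order given. In BAT, heart and muscle limma called none of the 94, 92 and 91 pathway genes tested, of which 22.3%, 8.7% and 8.79% had an unadjusted p under 0.05, near the 19.5%, 11.6% and 7.76% of all genes.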

How the data were processed

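RNA sequencing of BAT, heart, liver and muscle was deposited as 1 table of TPM per transcript for 32 libraries, made by the authors with Salmon from strand-specific libraries of bead-extracted RNA, per the labels' protocols and the submitters' processing notes. Salmon's version, its transcriptome and the build were not given in the sources used here. TPM keeps no read totals, so depth is unknown and no counting interval is given. Salmon divides reads shared by similar transcripts by estimation, which bears on the Ugt1 genes, Ugt2a1, Ugt2a2, Ugt2b5, Ugt2b38 and part of the Sult2a genes.

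Transcript TPM were matched to the GENCODE mouse M21 annotation (136081 of 147493 transcripts; the rest held 0.451% to 0.896% of TPM) and summed per gene. Each tissue was fitted alone with limma 3.58.1 in R 4.3.3 (mean-variance trend) on log2(TPM + 1), for genes averaging 1 TPM or more over its 8 libraries, two-sided, with Benjamini-Hochberg adjustment over all genes tested. The interaction used all 32 libraries as independent samples and genes averaging 1 TPM or more in each tissue, and WT tissues were compared in 1 fit of 16 libraries. Both fits pool the spread over tissues. The interaction calls of Suox, Tpst1 and Sult1a1 rest on that pooled spread. As deposited, these genes were called in no tissue fitted alone. The fits were tested on simulated data. Tables and figures used Python 3.11.15, pandas 2.3.3, numpy 2.4.6 and matplotlib 3.10.9. Promoter sequences came from RefSeq (GRCm38.p6).

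Groups came from the sample titles. Per the design text each tissue came from 4 individual mice; whether a number marks the same mouse across tissues is not stated, and p-values measure the spread between these libraries. Genes are given with values where they were called, had 1 of the 5 smallest p in a tissue, reached a WT mean of 10 TPM in a tissue, or were named singly. For a pathway list these are its called genes, up to 4, or the 2 of smallest p. The genes of the set, the lists and the tests were chosen with earlier results of these data known. Alternatives were a pseudocount of 0.1, no filter, a minimum of 5 TPM, scaling by the median ratio of all genes, TPM recomputed with mitochondrial and the 10 most abundant genes set aside, no trend, a replicate block, array weights, 1 fit over all libraries, an adjusted p threshold of 0.1 and leaving out each library in turn. For the interaction, libraries of 1 genotype and number were also taken as 1 mouse, which was added after seeing the data.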

Additional observations from a re-analysis of the deposited data

Results flagged for a closer look

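In 3 of 64 groups of 4 libraries, 1 library stood apart from the other three by Dixon's criterion, and chance alone gives about 1 in 20 such groups. Tpst1 in heart was 4.68 TPM in replicate 2 of Mut, the library with the mitochondrial share of 54.5%. Ugt3a2 in liver was 315 TPM in replicate 2 of Mut, above the 298 to 299 TPM of the other three. Papss2 in muscle was 3.62 TPM in replicate 1 of Mut, against 3.26 to 3.30 TPM in the others.

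The Mut minus WT difference differed between tissues by the limma interaction test for 4 genes, with adjusted p of 1.19e-06 for Papss1, 0.00999 for Tpst1, 0.0148 for Suox and 0.0453 for Sult1a1. Over the alternatives run, the adjusted p reached at most 1.08e-05 for Papss1, 0.0248 for Tpst1, 0.0327 for Suox and 0.095 for Sult1a1.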

How the results depend on the processing

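The 22 Mut minus WT differences recomputed singly kept their direction and their side of the threshold in 344 of 366 alternatives, passed it in 18 where they had not before, and changed sign in 4, all of Papss1 outside liver: -0.045 in BAT with median-ratio scaling, and in heart 0.048 with median-ratio scaling, 0.086 when mitochondrial and the 10 most abundant genes were set aside, and 0.059 without replicate 2 of Mut (-0.111 to 0.059 when any 1 library was left out). The number of genes of the set called in BAT, 0 as reported, was 3 with array weights (Sult1a1, Sult5a1 and Suox; 648 of all genes were then called), 3 in 1 fit over all libraries (Sult1a1, Tpst1 and Ugt1a6b; 848 of all genes) and 0 to 3 when 1 library was left out, with 3 without replicate 3 of WT BAT (819 of all genes). In liver, where it was 1, it was 2 with median-ratio scaling, 4 with array weights, 8 in 1 fit, 7 at an adjusted p under 0.1 and 1 to 3 when 1 library was left out, with 3 without replicate 1 of WT. The interaction calls, 4 as reported, numbered 2 with the filter at 5 TPM, which left 6 genes of the set to test, and 3 to 4 when 1 library was left out. Between WT tissues, rescaling gave 8 calls for BAT minus muscle, where 18 were reported, and 7 for heart minus muscle, where 16 were; leaving out 1 library gave 25 to 27 for liver minus BAT and liver minus heart, 24 to 25 for liver minus muscle, 4 to 5 for BAT minus heart, and 14 to 18 for BAT minus muscle and heart minus muscle. Promoters of the set held a searched motif in 57 pairs of promoter and motif on both strands, and in 36 on the gene's strand. All genes called in liver numbered 499, but 35 without the filter, 307 with median-ratio scaling (48.2% of them higher in Mut, against 90.8% as deposited), 732 with array weights, 1902 in 1 fit, 1453 at an adjusted p under 0.1 and 22 to 390 without 1 library. With the replicate block, which gave 126 calls over all genes in liver, the set had 0, 0, 1 and 0 genes called in BAT, heart, liver and muscle, and 4 for the interaction. Within a tissue, Mut and WT libraries of the same number shared no strong deviation from their group means over genes averaging 1 TPM or more. Their 16 correlations ran from -0.248 to 0.141, and 1 of 16 was highest with its own number. A weaker pairing of Mut with WT cannot be seen this way. Whether a number marks 1 mouse across tissues is not stated. In Mut, red blood cell markers summed highest in replicate 4 of all 4 tissues (6220 TPM in BAT, 26200 in heart, 4290 in liver and 2990 in muscle). Taking each number within a genotype as 1 mouse, an alternative chosen after seeing the data, gave 4 interaction calls, with adjusted p of 5.35e-07 for Papss1, 0.00749 for Tpst1, 0.0116 for Suox and 0.0326 for Sult1a1 (estimated correlation 0.0431). The causes of these changes were not tested. TPM gives no depth, so low genes cannot be given a detection limit.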
